A study of Mus musculus with 24 samples.

Results

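Trithorax, Polycomb and DNA methylation regulators were followed in sorted LSKs as 10 genes, taken by symbol from the 24091 genes of the deposited count table: the histone methyltransferase genes Ash1l, Kmt2a, Kmt2d and Setd2, the Polycomb genes Ezh1, Ezh2, Asxl1 and Bmi1, and the DNA methylation genes Tet2 and Dnmt3a. LSKs are bone marrow cells without lineage markers that carry Sca-1 and c-Kit, the fraction that holds hematopoietic stem cells and multipotent progenitors. They were sorted from B6 mice, and bulk RNA-seq gave 1 library per mouse, with 4 groups of 6 mice and equal numbers of females and males in each. WT mice had the intact miR-142 locus and no transgene. MiR-142 KO mice carried the constitutive miR-142-/- deletion and no transgene. CP CML mice were miR-142+/+ and expressed BCR-ABL, the fusion kinase of chronic myeloid leukemia, from a transgene that the SCL-driven tTA protein switches on once tetracycline is withdrawn. BC CML mice carried the same BCR-ABL transgenes on the miR-142-/- background. In the study's methods both leukemic groups were sampled 2 weeks after tetracycline withdrawal and were matched for age, sex, SCL and BCR-ABL level. CP (chronic phase) and BC (blast crisis) are the study's names for these groups. The study places the first circulating blasts of miR-142-/- BCR-ABL mice later than these 2 weeks. The SCL enhancer directs BCR-ABL mainly to stem cells and early progenitors. The methods give n = 5 per group without naming the mice, so all 6 were used.

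Trithorax proteins keep genes active by methylating histone H3 on lysine 4 or lysine 36, and Polycomb proteins keep genes silent by methylating lysine 27 or by marking histone H2A with ubiquitin. DNA methyltransferases add methyl groups to cytosine, and TET enzymes oxidize them. In the hematopoietic system several of these genes are recurrently mutated in clonal hematopoiesis and myeloid neoplasms, and the HOXA cluster is a classic target of both Trithorax and Polycomb complexes. A microRNA lowers its target mRNAs through pairing of its seed, bases 2 to 8, with sites that lie mostly in the 3' UTR.

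The 2 mature strands of the deleted microRNA are shown because their seeds define the sites searched for in the members (RefSeq, GRCm38.p6, plus strand of chr11, seed in capitals). They lie at chr11:87756867-87756887 and chr11:87756903-87756925.
mmu-miR-142a-5p: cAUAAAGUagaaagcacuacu
mmu-miR-142a-3p: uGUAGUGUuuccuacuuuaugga
A 7-base match of the seed reads ACACTAC for miR-142a-3p and ACTTTAT for miR-142a-5p on the mRNA strand. Of the 10 members, 4 held such a match in their longest annotated 3' UTR (GENCODE vM21, GRCm38, which is mm10). Ash1l held 2 matches of miR-142a-3p, Kmt2a held 1 of miR-142a-3p, and Setd2 and Ezh1 held 1 of miR-142a-5p each. The windows below carry the match in capitals, on the strand of the gene. The Ash1l windows lie at chr3:89077900-89077929 and chr3:89078909-89078938 (plus strand), the Kmt2a window at chr9:44806698-44806727 (minus strand), the Setd2 window at chr9:110618541-110618570 (plus strand) and the Ezh1 window at chr11:101192792-101192821 (minus strand).
Ash1l, upstream match: ttaccgactgaaACACTACtcttattttct
Ash1l, downstream match: cagaagcaaaagACACTACgctgtcatttt
Kmt2a: gcaagttcaatgACACTACtgccctggtta
Setd2: tcagatcactttACTTTATccaatttttac
Ezh1: aactaggcctccACTTTATtccaaggggac
No member held the 8-base form, in which the match is followed by an A. A match describes the sequence and is not evidence that the site is used.

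Depth was similar across groups, at 16267965 to 24687077 counts per library, and all 10 members passed the filter on low counts that left 13520 genes for testing. Mir142 itself (chromosome 11, 87756864 to 87756927) had 68 to 153 counts in each of the 12 libraries with the intact locus and 0 counts in each of the 12 without it. The 6 genes of the LSK gate and its subsets (Kit, Ly6a, Cd34, Flt3, Slamf1 and Cd48) were all detected in every group. They summed to 2910 to 3656 CPM (counts scaled to a common total, with TMM-adjusted library sizes) for WT, 2390 to 2792 for miR-142 KO, 2727 to 3134 for CP CML and 2283 to 2560 for BC CML mice, and 3 of the 6 were lower and 1 higher in BC CML than CP CML LSKs. Within the gate several marker lists of stem cells and of more committed cells differed between groups. The summed level of 10 stem cell markers was 627 to 1165 CPM for WT, 309 to 580 for miR-142 KO, 443 to 589 for CP CML and 246 to 376 for BC CML mice, and that of 8 mast cell or basophil markers was 91.2 to 601, 284 to 2735, 1955 to 3962 and 5508 to 11917 CPM. No listed marker was at 0 in a whole group. Of the 10 stem cell markers, 5 were lower and 1 higher both in BC CML compared with CP CML and in miR-142 KO compared with WT, 9 were lower and none higher in CP CML compared with WT, and 7 were lower and none higher in BC CML compared with miR-142 KO. Of 7 markers of neutrophil-primed progenitors, 4, 7, 6 and 4 were higher in that order and none was lower. Of 8 markers of lymphoid-primed progenitors, 3, 5, 6 and 3 were lower and 2, 1, 0 and 0 higher. Of 8 megakaryocyte markers, 2, 1, 4 and 7 were lower and 0, 6, 1 and 0 higher. Of 6 tested erythroid markers, 2, 1, 5 and 4 were lower and none was higher. Of 10 mature neutrophil markers, 3, 0, 1 and 7 were lower and 1, 6, 3 and 2 higher. Of 9 macrophage markers, 1, 7, 0 and 0 were lower and 0, 0, 0 and 2 higher. Of all genes tested, 17.6%, 16.4%, 22.9% and 19.3% were lower and 20.4%, 19.9%, 22.5% and 20.3% higher in the same order. In bulk RNA, fewer cells of a type and less RNA per cell cannot be told apart, and the part of cell composition in the results on the members was not tested.

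The members passing the test were not the same in each comparison, and their median change was close to 0. BC CML LSKs had more Ash1l and less Asxl1, Ezh1 and Dnmt3a than CP CML LSKs, so that 1 member rose and 3 fell of 10, beside 38.0% of all genes tested that passed an adjusted p of 0.05 in either direction (20.4% higher and 17.6% lower). In miR-142 KO compared with WT LSKs, Ash1l and Tet2 rose and Ezh1, Kmt2a and Dnmt3a fell, beside 36.3% of all genes (19.9% higher and 16.4% lower). In CP CML compared with WT LSKs, Tet2 rose and Kmt2a, Dnmt3a, Ash1l and Ezh2 fell, beside 45.4% of all genes (22.5% higher and 22.9% lower). In BC CML compared with miR-142 KO LSKs, Kmt2a and Dnmt3a fell and no member rose, beside 39.6% of all genes (20.3% higher and 19.3% lower). The first 3 of these shares, 4, 5 and 5 of 10, are close to the background of their comparison. The last, 2 of 10, is below it, and 10 genes are too few to read more from that. The median log2 fold change over the 10 members was -0.06, -0.07, -0.12 and -0.10 in that order, against 0.01, 0.01, -0.02 and -0.02 over all genes tested. Ash1l, Kmt2a, Kmt2d, Setd2, Tet2 and Dnmt3a are among the 1352 tested genes with the longest transcripts. Those 1352 genes had medians of -0.04, -0.03, -0.08 and -0.10 in the same order. The comparisons share groups and are therefore not independent of each other. With upper quartile normalization in place of TMM, 42.4% instead of 53.7% of all calls between BC CML and CP CML and 42.0% instead of 54.7% of those between miR-142 KO and WT were higher, and 7 members (2 higher, 5 lower) instead of 5 passed between miR-142 KO and WT.

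**Figure D1:**
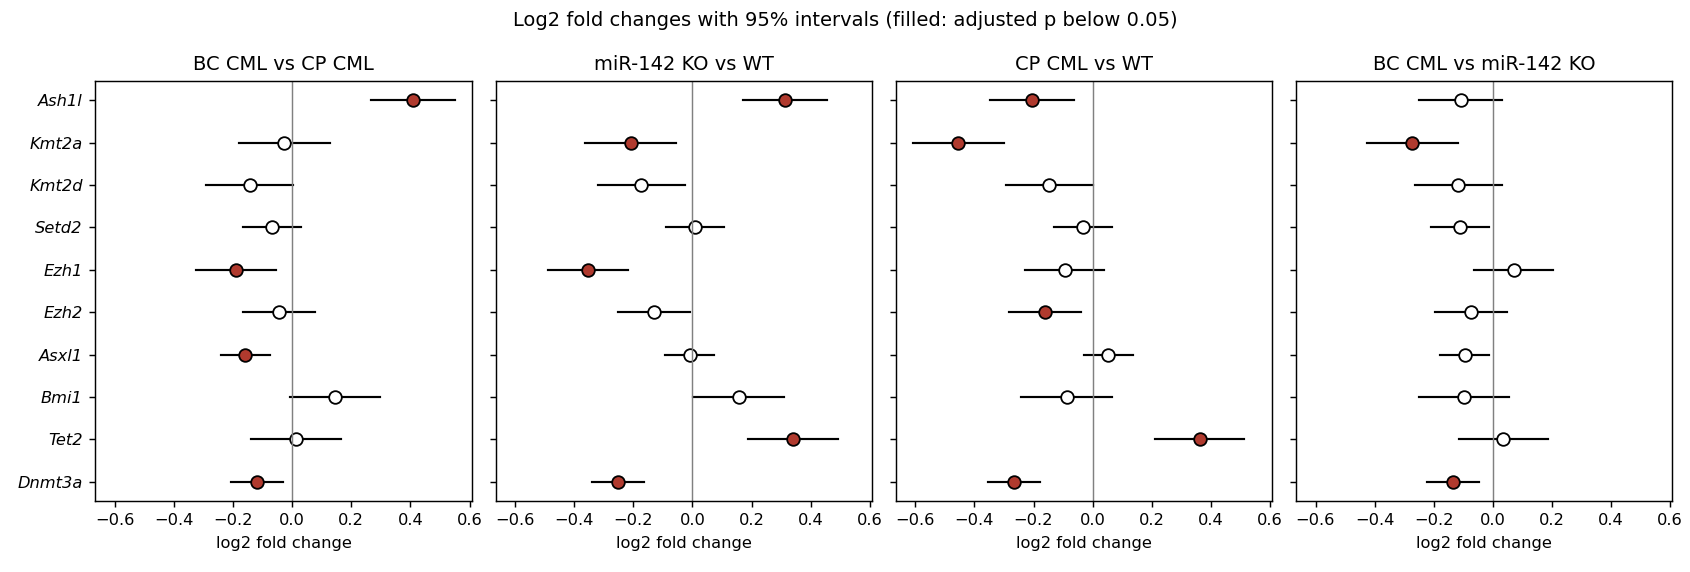
Log2 fold changes (x axis) of the 10 members (y axis) in 4 comparisons, with lines for 95% intervals and filled circles for an adjusted p below 0.05 in edgeR's quasi-likelihood test. Ash1l is the member furthest to the right in BC CML against CP CML (0.41), while Kmt2a is furthest to the left in CP CML against WT (-0.45).

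Whether miR-142 loss acted differently on leukemic and normal LSKs was tested as the difference between both effects. None of the 10 members passed in edgeR's quasi-likelihood test, in its likelihood ratio test or in DESeq2, beside 3.99% of all genes in the quasi-likelihood test (1.91% higher and 2.08% lower). At an unadjusted p of 0.05, 3 members passed (Tet2, Asxl1 and Dnmt3a), beside 2611 of all 13520 genes (19.3%). The lowest value was that of Tet2, with a difference of -0.33 ± 0.11 (SE) on the log2 scale and an adjusted p of 0.0905. It passed without WT replicate 3 (adjusted p = 0.0243), without miR-142 KO replicate 3 (0.0154) or without CP CML replicate 1 (0.0476). Between females and males, the effect of miR-142 loss differed for 0 of 10 members in either background (edgeR's quasi-likelihood test, 0 also at an unadjusted p of 0.05, with 3 mice of each sex per group). Over all 13520 genes the same test called 0 with and 1 without BCR-ABL, so it says nothing particular to the members.

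To compare the genes with each other, levels were divided by the transcript length given in the table (RPKM, the CPM per kilobase). Ezh2 stood highest in each of the 4 groups, with group means of 79.9 to 92.0 RPKM. Asxl1 (36.2 to 40.4 RPKM), Setd2 (35.4 to 38.3) and Kmt2a (28.4 to 39.7) came next by their mean over groups. Ash1l, Kmt2d and Bmi1 lay between 20.1 and 31.2 RPKM, and in BC CML Ash1l (28.9) stood above Kmt2a (28.4). Dnmt3a (15.4 to 20.1), Tet2 (10.9 to 14.1) and Ezh1 (10.6 to 13.5) were lowest. Within a gene, the highest group mean exceeded the lowest by 1.08-fold for Setd2 and by up to 1.43-fold for Ash1l.

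**Figure D2:**
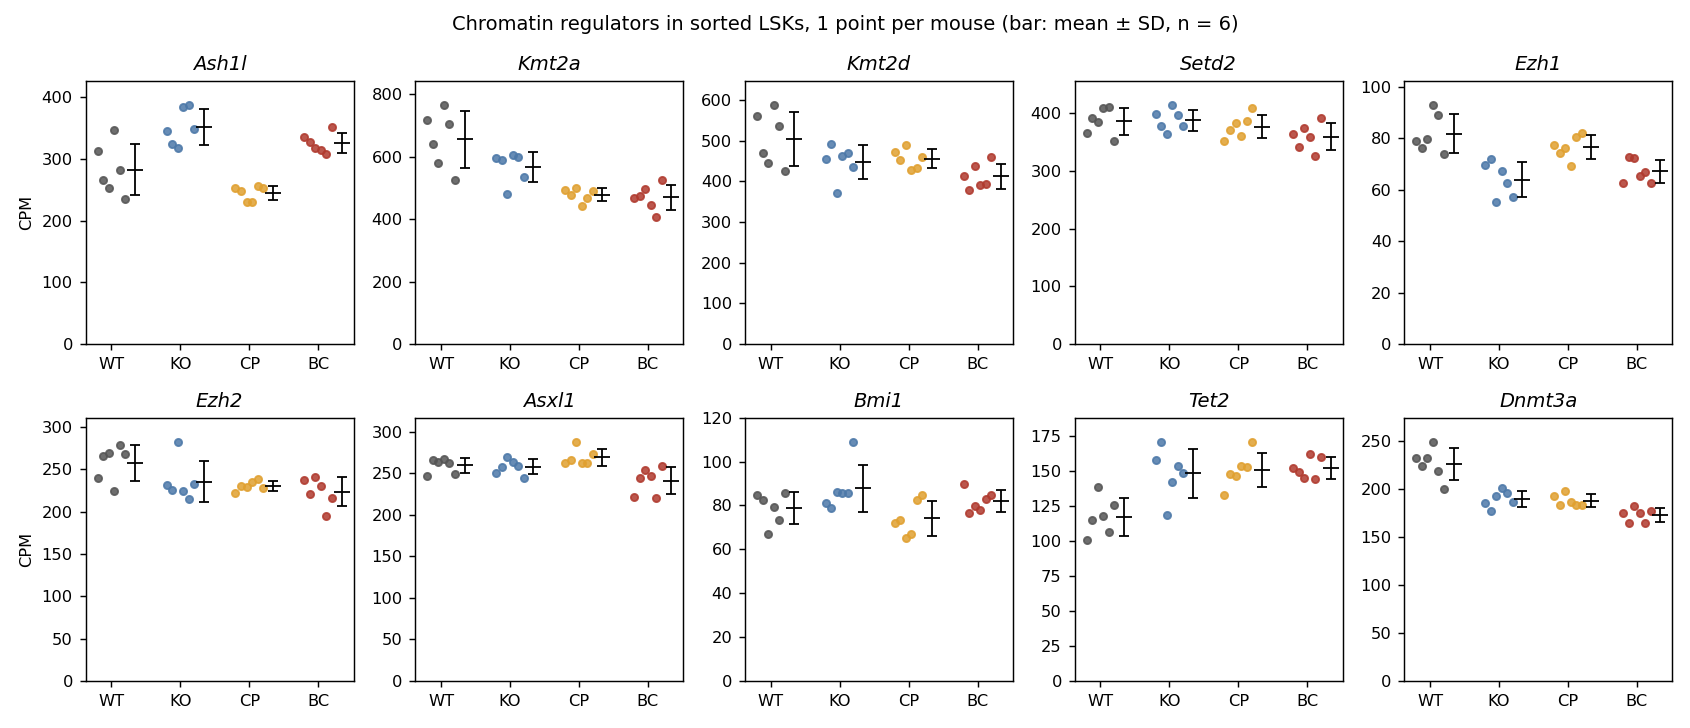
Level of each member in CPM (y axis, from 0) in 24 LSK libraries, 1 point per mouse, for WT, miR-142 KO (KO), CP CML (CP) and BC CML (BC), with a bar at mean ± SD (n = 6). Ash1l in BC CML lies wholly above CP CML, whereas Setd2 overlaps between all groups.

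Ash1l (chromosome 3, 88950364 to 89079375, mm10) encodes a Trithorax methyltransferase that places up to 2 methyl groups on lysine 36 of histone H3. The lowest, median and highest levels of 6 mice were 235, 274 and 347 CPM in WT, 318, 347 and 388 CPM in miR-142 KO, 231, 251 and 256 CPM in CP CML and 308, 322 and 351 CPM in BC CML LSKs. Both groups without miR-142 stood above their counterparts with it, and the BC CML and CP CML mice did not overlap, which was also true of 20.7% of all genes tested. Ash1l was 1.33-fold higher in BC CML than CP CML LSKs (log2 fold change 0.41 ± 0.07 SE, adjusted p = 0.0001138, edgeR's quasi-likelihood test). It was 1.24-fold higher in miR-142 KO than WT LSKs (0.31 ± 0.07, adjusted p = 0.00155), where the groups overlapped. The rise did not differ detectably between leukemic and normal cells (difference 0.09, 95% interval -0.11 to 0.29, adjusted p = 0.668). BCR-ABL went with the opposite direction on the miR-142+/+ background, where Ash1l fell by 0.20 ± 0.07 on the log2 scale in CP CML compared with WT (adjusted p = 0.0245). That call was lost in 5 of 12 fits with a mouse left out (CP CML replicate 2, 3 or 4, WT replicate 1 or 4, highest adjusted p = 0.12) and when transcript length was modelled (-0.12, adjusted p = 0.0597) or the 12 libraries were fitted alone (0.0516). BC CML and miR-142 KO LSKs differed by -0.11 (95% interval -0.25 to 0.03, adjusted p = 0.235). The order of the means was thus miR-142 KO, BC CML, WT and CP CML, in which the neighbours BC CML and WT overlapped as well.

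The 2 Ash1l matches shown above start at bases 830 and 1839 of a 3' UTR of 2293 bases. Among the 12612 tested genes with an annotated 3' UTR (93.28% of those tested), 879 (6.97%) held at least 1 such 7-base match of miR-142a-3p and 74 (0.587%) held 2 or more. Of the 879 genes, 36.7% were higher and 12.5% lower in BC CML than CP CML LSKs, against 20.1% and 17.9% of the 11733 genes without a match. In miR-142 KO compared with WT LSKs the shares were 35.2% and 11.7%, against 19.8% and 17.0%. The median log2 fold change was 0.12 with and 0.02 without a match in BC CML against CP CML. For the 74 genes with 2 or more it was 0.20, and 32 of them rose while 6 fell. Genes with a match had longer 3' UTRs, with a median of 2537 against 1102 bases. Matches of the 5p strand, as in Setd2 and Ezh1, were held by 1999 genes. Of these, 22.9% were higher and 17.8% lower in BC CML than CP CML LSKs, against 21.0% and 17.5% of the genes without a 5p match. In miR-142 KO compared with WT 19.4% were higher, against 21.1% without. Kmt2a also carried a miR-142a-3p match and was not higher in either comparison of miR-142 loss, as described below.

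**Figure D3:**
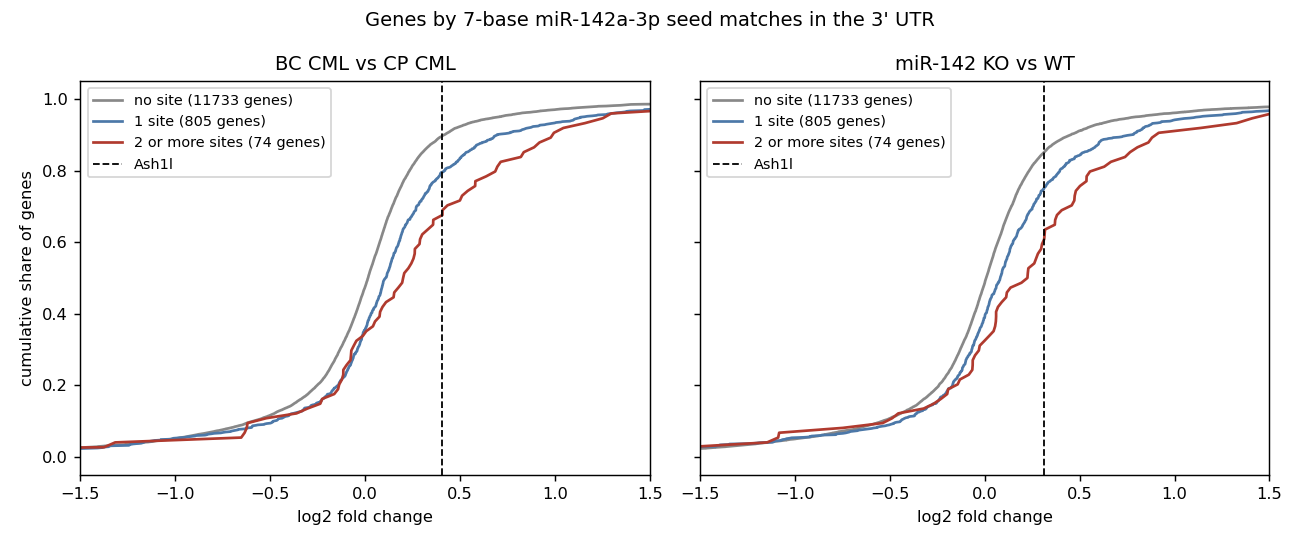
Cumulative share of tested genes (y axis) against log2 fold change (x axis) for genes with no, 1, or 2 or more 7-base miR-142a-3p matches in the 3' UTR (11733, 805 and 74 genes), with Ash1l as the dashed line. The curves of genes with matches lie to the right of the curve without in both panels, and Ash1l is at 0.41 and 0.31.

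The genes whose level followed that of Ash1l most closely over the 24 libraries were Smad5, a signal transducer of BMP receptors (Pearson r = 0.96 of log2 CPM), Zfp275 (0.94), Btbd7 (0.94), Cmtm4 (0.92) and Utrn, which encodes utrophin (0.91). Part of this likeness is the shared shift between groups, and within groups the values were 0.86, 0.82, 0.82, 0.83 and 0.82. The levels that ran most against Ash1l were those of Cacna1h (-0.89), the plasma cell regulator Irf4 (-0.87) and the cytokine gene Il10 (-0.86). Within groups these values were -0.57, -0.48 and -0.67, at low mean levels of 2.48, 8.13 and 0.595 CPM. Of these 8 genes, Smad5, Btbd7 and Utrn, and also Cacna1h, each held 1 match of miR-142a-3p, beside 6.97% of all tested genes with an annotated 3' UTR. The 8 were picked by their correlation with Ash1l, whose level differed with miR-142 loss, so their matches are a description only. The B cell or plasma cell markers, 10 genes in all, summed to 27.6 to 43.8 CPM in the 12 libraries without miR-142 and to 71.1 to 983 CPM in the 12 with it.

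Kmt2a (chromosome 9, 44803355 to 44881274) encodes MLL1, the lysine 4 methyltransferase whose fusions drive acute leukemias. Its lowest, median and highest levels were 524, 673 and 766 CPM in WT, 482, 593 and 604 CPM in miR-142 KO, 443, 484 and 500 CPM in CP CML and 407, 471 and 525 CPM in BC CML LSKs. Every CP CML mouse lay below every WT mouse, which was also true in either direction of 21.8% of all genes. Kmt2a was lower in CP CML than WT, at 0.73 times its level (log2 fold change -0.45 ± 0.08, adjusted p = 8.29e-05) and 17.2% lower in BC CML than miR-142 KO LSKs (-0.27 ± 0.08, adjusted p = 0.00855). With the miR-142 deletion alone it was lower by a smaller margin (-0.21 ± 0.08, adjusted p = 0.0392). This call was lost in 8 of 12 fits with a mouse left out (WT replicate 1, 2, 4 or 5, miR-142 KO replicate 1, 2, 3 or 6, highest adjusted p = 0.136), and with the 12 libraries fitted alone (0.098) or without a filter on low counts (0.0516). BC CML and CP CML were close, at -0.03 (95% interval -0.18 to 0.13). Over the 9 other settings, Kmt2a ranged from -0.49 to -0.36 in CP CML against WT. It ranged from -0.31 to -0.15 in BC CML against miR-142 KO, and both calls held in each setting. The 1352 tested genes with the longest transcripts, Kmt2a among them, had median log2 fold changes of -0.08 and -0.10 in these comparisons.

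The counts from lists of related genes that follow are to be read against the shares of all genes given above. In each comparison 19.9% to 22.5% passed upward and 16.4% to 22.9% downward. Of the 1352 genes with the longest transcripts, 15.7% rose and 28% fell in CP CML compared with WT. In BC CML compared with miR-142 KO, 13% rose and 30% fell. The part of transcript length in the list counts was not tested. The lists include members, among them Kmt2a, Ash1l, Ezh1, Ezh2, Asxl1 and Dnmt3a, and some share genes, such as Psip1. Cofactors of Kmt2a gave a mixed picture. Psip1, which encodes the chromatin tether LEDGF, was lower in CP CML than WT (-0.39 ± 0.06, adjusted p = 5.35e-05) and in BC CML than miR-142 KO (-0.24 ± 0.06, adjusted p = 0.00583). Men1, which encodes the tether protein menin, was lower in CP CML than WT (-0.26 ± 0.07, adjusted p = 0.00542). Dpy30, a core subunit shared by these methyltransferases, rose in the same comparisons (0.38 and 0.48). Of 20 tested genes of the KMT2 and SET1 methyltransferases and their COMPASS subunits, 3 rose and 5 fell in CP CML compared with WT, 1 rose and 5 fell in BC CML compared with miR-142 KO, 3 rose and 1 fell in BC CML compared with CP CML, and 3 rose and 3 fell in miR-142 KO compared with WT LSKs.

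The ratio of Ash1l to Kmt2a within a library, per kilobase, brought these directions together. It was 0.587, 0.64 and 0.664 (lowest, median, highest) in WT, 0.807, 0.941 and 0.968 in miR-142 KO, 0.678, 0.759 and 0.804 in CP CML and 0.936, 1.02 and 1.11 in BC CML LSKs. The 4 groups overlapped nowhere except between miR-142 KO and BC CML. The ratio is given as a description with no test, since its parts were known to move.

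**Figure D4:**
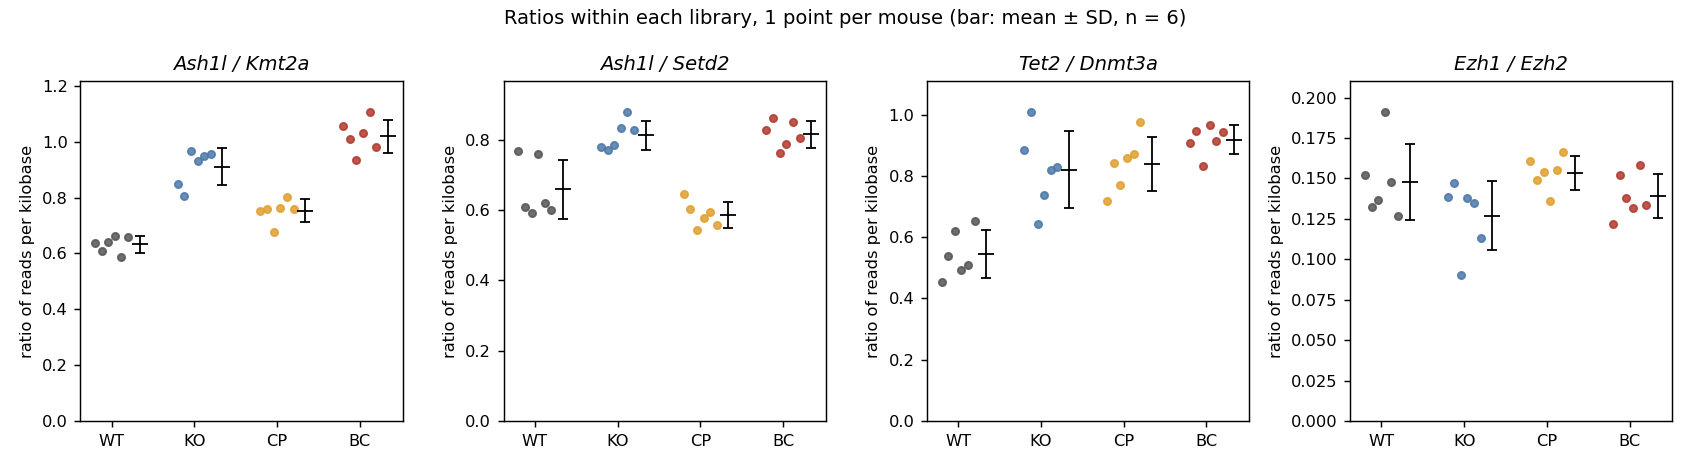
Ratios of pairs of members within each library, in reads per kilobase (y axis, from 0), 1 point per mouse, with a bar at mean ± SD (n = 6). Ash1l over Kmt2a runs from 0.633 ± 0.03 in WT to 1.02 ± 0.06 in BC CML and Tet2 over Dnmt3a from 0.544 ± 0.078 to 0.919 ± 0.047, while Ezh1 over Ezh2 overlaps in all groups.

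Kmt2d (chromosome 15, 98831669 to 98871205), which encodes an enhancer lysine 4 methyltransferase, passed in no comparison with all mice and TMM. Its lowest, median and highest levels were 425, 503 and 588 CPM in WT, 372, 459 and 491 CPM in miR-142 KO, 427, 457 and 489 CPM in CP CML and 379, 403 and 460 CPM in BC CML LSKs. Its values were below 0 in each comparison, from -0.12 in BC CML against miR-142 KO to -0.17 in miR-142 KO against WT (adjusted p = 0.0754 in the latter). Several other settings gained a call. Between BC CML and CP CML it passed with the 12 libraries fitted alone (-0.16, adjusted p = 0.0289). Between miR-142 KO and WT it passed with upper quartile normalization (-0.22, adjusted p = 0.0309) and without WT replicate 3 (0.0461) or 6 (0.0236). It also passed in CP CML against WT without WT replicate 6 (0.038) and in BC CML against miR-142 KO without miR-142 KO replicate 3 (0.0447). Kmt2d and Kmt2a moved together from mouse to mouse, with a Pearson r of 0.91 over 24 libraries after the group means were removed, and both are among the longest transcripts in the table.

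Setd2 (chromosome 9, 110532597 to 110618633) encodes the methyltransferase that places the third methyl group on lysine 36 of histone H3. It was the steadiest member, with lowest, median and highest levels of 351, 388 and 410 CPM in WT, 363, 387 and 414 CPM in miR-142 KO, 352, 376 and 408 CPM in CP CML and 325, 361 and 392 CPM in BC CML LSKs. All 4 groups overlapped. The difference between BC CML and CP CML was -0.07 (95% interval -0.17 to 0.03), and the furthest from 0 was BC CML against miR-142 KO (-0.11, adjusted p = 0.0817). That difference passed with upper quartile normalization (adjusted p = 0.0261) and without miR-142 KO replicate 3 (0.0281), BC CML replicate 3 (0.0389) or BC CML replicate 6 (0.0269). Of the 16 lysine 36 methyltransferases, demethylases and ASH1L partners tested, 3 rose and none fell both in BC CML compared with CP CML (Ash1l, Nsd3 and Setd3) and in miR-142 KO compared with WT (Ash1l, Smyd2 and Nsd3), with medians of -0.01 and 0.02. The calls on Nsd3 and Setd3 between BC CML and CP CML were lost in 7 and 11 of 12 fits with a mouse left out (highest adjusted p = 0.081 and 0.157). Morf4l1, whose product MRG15 activates ASH1L, gave 0.09 (adjusted p = 0.118) and 0.02 (0.776). In CP CML compared with WT 2 rose and 4 fell, and in BC CML compared with miR-142 KO 2 rose and 3 fell.

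Ezh1 and Ezh2 encode the alternative catalytic subunits of Polycomb repressive complex 2, which methylates lysine 27. Ezh1 (chromosome 11, 101191115 to 101226463), the subunit of resting cells, had lowest, median and highest levels of 73.7, 79.2 and 92.9 CPM in WT, 55.1, 65.0 and 71.9 CPM in miR-142 KO, 69.2, 76.8 and 82.0 CPM in CP CML and 62.6, 66.2 and 72.8 CPM in BC CML LSKs. Every miR-142 KO mouse lay below every WT mouse, as was the case in either direction for 14.5% of all genes, while CP CML and BC CML overlapped. Ezh1 was 21.7% lower in miR-142 KO than WT (-0.35 ± 0.07, adjusted p = 0.000291) and 12.3% lower in BC CML than CP CML (-0.19 ± 0.07, adjusted p = 0.0318). The latter call was lost without CP CML replicate 6 (adjusted p = 0.0532) or BC CML replicate 1 (0.0536). BCR-ABL went with no detectable change, at -0.09 (95% interval -0.23 to 0.04) in CP CML against WT and 0.07 (-0.06 to 0.20) in BC CML against miR-142 KO.

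Ezh2 (chromosome 6, 47530274 to 47595338), the subunit of dividing cells, had lowest, median and highest levels of 225, 267 and 278 CPM in WT, 215, 229 and 283 CPM in miR-142 KO, 223, 230 and 239 CPM in CP CML and 195, 226 and 242 CPM in BC CML LSKs. All groups overlapped. Its lower level in CP CML than WT (-0.16 ± 0.06, adjusted p = 0.0392) did not pass in 9 of 12 fits with a mouse left out (WT replicate 2, 3, 5 or 6, CP CML replicate 1, 2, 3, 4 or 6, highest adjusted p = 0.112). After the group means were removed, Ezh2 followed the summed level of 23 proliferation genes (Pearson r = 0.83 over 24 libraries) and Ezh1 ran against it (-0.53), as did Kmt2d (-0.59), Ash1l (-0.54) and Kmt2a (-0.42). That sum was 6003 to 7353 CPM for WT, 6760 to 8437 for miR-142 KO, 6275 to 7202 for CP CML and 6193 to 7611 for BC CML mice, with overlap between all groups.

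**Figure D5:**
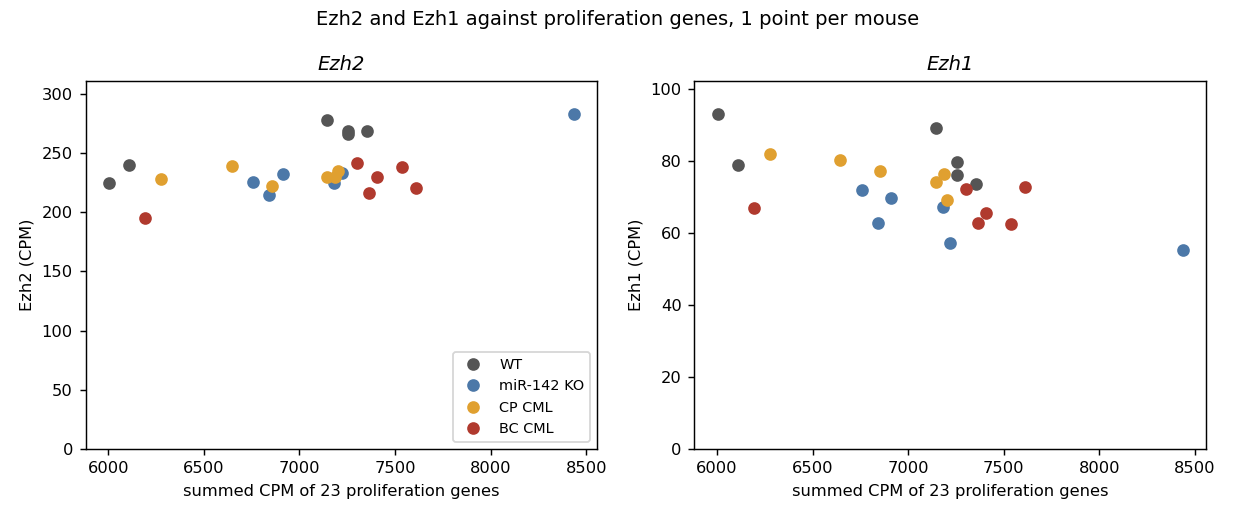
Levels of Ezh2 and Ezh1 in CPM (y axes, from 0) against the summed CPM of 23 proliferation genes (x axis), 1 point per mouse, coloured by group. The miR-142 KO mouse at the far right, at 8437 CPM of proliferation genes, has 283 CPM of Ezh2 and the lowest Ezh1 level, 55.1 CPM.

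Among the shared core subunits of the same complex, Eed fell in miR-142 KO compared with WT (-0.32 ± 0.06, adjusted p = 0.000392) and rose in BC CML compared with miR-142 KO LSKs (0.20 ± 0.06, adjusted p = 0.0147, but 0.0621 without BC CML replicate 1). Suz12 passed in neither of these. Of the 12 genes of the complex and its accessory proteins, none rose and 3 fell in BC CML compared with CP CML (Phf19, Ezh1 and Phf1, of which Phf1 was lost in 4 of 12 fits with a mouse left out), 1 rose and 3 fell in miR-142 KO compared with WT, 1 rose and 1 fell in CP CML compared with WT, and Eed alone passed in BC CML compared with miR-142 KO.

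Asxl1 (chromosome 2, 153346139 to 153404007) encodes the cofactor of BAP1 in the complex that removes ubiquitin from histone H2A. The lowest, median and highest levels were 247, 263 and 268 CPM in WT, 245, 258 and 270 CPM in miR-142 KO, 262, 264 and 288 CPM in CP CML and 220, 246 and 259 CPM in BC CML LSKs. The BC CML mice all lay below the CP CML mice, the closest pair being at 259 and 262 CPM. These groups did not overlap for 20.7% of all genes tested either. Asxl1 was 10.4% lower in BC CML than CP CML (-0.16 ± 0.04, adjusted p = 0.0048), and it was the only one of the 10 tested genes of this complex (11 listed) to pass there. Between miR-142 KO and WT it differed by -0.01 (95% interval -0.09 to 0.07). The difference of these effects had an unadjusted p of 0.0203 and an adjusted p of 0.164. In BC CML against miR-142 KO it was at -0.10 (adjusted p = 0.0734). That difference passed in 3 of 9 other settings: DESeq2 (0.0348), upper quartile normalization (0.0161) and at least 1 CPM in 6 libraries (0.0465). It also passed in 4 of 12 fits with a mouse left out. In CP CML against WT Asxl1 was at 0.05 (adjusted p = 0.321) and passed only when transcript length was modelled (0.11, adjusted p = 0.0302). In the complex, 1 gene rose in miR-142 KO compared with WT (Mbd6), 1 rose and 1 fell in CP CML compared with WT (Asxl2 and Ogt, the latter not without WT replicate 4, adjusted p = 0.0587), and 2 fell in BC CML compared with miR-142 KO (Mbd6 and Mbd5).

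Bmi1 (chromosome 2, 18677018 to 18686629), the Polycomb repressive complex 1 subunit needed for stem cell self-renewal, passed in no comparison. Its lowest, median and highest levels were 67.0, 80.9 and 85.5 CPM in WT, 78.7, 85.8 and 109 CPM in miR-142 KO, 65.3, 72.6 and 84.9 CPM in CP CML and 76.5, 81.4 and 89.7 CPM in BC CML LSKs. The values were 0.15 in BC CML against CP CML (adjusted p = 0.147) and 0.16 in miR-142 KO against WT (adjusted p = 0.121), with overlap in both. Several other subunits had larger fold changes. Pcgf3, a relative of Bmi1 in variant complexes, rose in BC CML compared with CP CML (0.76 ± 0.07, adjusted p = 1.67e-08) and in miR-142 KO compared with WT (0.61 ± 0.07, adjusted p = 3.81e-07). Pcgf2, the closest relative of Bmi1, fell in both (-0.60 ± 0.14 and -0.44 ± 0.14, adjusted p = 0.00179 and 0.0179, the latter up to 0.0547 with a mouse left out), as did Cbx2, a reader of methylated lysine 27 (-0.64 ± 0.11 and -0.85 ± 0.11, adjusted p = 8.45e-05 and 2.37e-06). Cbx7, another such reader, fell in BC CML compared with CP CML (-0.60 ± 0.15, adjusted p = 0.00292). Of the 24 genes of the complex, 2 rose and 6 fell in BC CML compared with CP CML, 4 rose and 5 fell in miR-142 KO compared with WT, 2 rose and 10 fell in CP CML compared with WT, and 1 rose and 10 fell in BC CML compared with miR-142 KO LSKs.

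Tet2 (chromosome 3, 133463677 to 133544390), which encodes a dioxygenase that oxidizes methylcytosine, was lowest in WT. Its lowest, median and highest levels were 101, 116 and 139 CPM in WT, 119, 151 and 171 CPM in miR-142 KO, 133, 150 and 171 CPM in CP CML and 144, 151 and 162 CPM in BC CML LSKs. The 3 altered groups had nearly the same median, and only BC CML stood wholly above WT, a pair for which the share of all genes was not counted. Tet2 was 1.27-fold higher in miR-142 KO (0.34 ± 0.08, adjusted p = 0.00136) and 1.29-fold higher in CP CML (0.36 ± 0.08, adjusted p = 0.000662) than WT LSKs. No further rise was detectable with both lesions, at 0.01 (95% interval -0.14 to 0.16) in BC CML against CP CML and 0.03 (-0.12 to 0.19) in BC CML against miR-142 KO.

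Dnmt3a (chromosome 12, 3806523 to 3914443), the de novo DNA methyltransferase gene, fell in all 4 comparisons of groups. The lowest, median and highest levels were 200.2, 227 and 249 CPM in WT, 176, 189 and 201 CPM in miR-142 KO, 183, 185 and 198 CPM in CP CML and 164, 175 and 182 CPM in BC CML LSKs. WT stood highest and BC CML lowest, with miR-142 KO in between and overlapping both, while CP CML lay wholly below WT and wholly above BC CML. Of all genes tested, 21.8% did not overlap between CP CML and WT and 20.7% did not between BC CML and CP CML. Dnmt3a was 16.1% lower in miR-142 KO (-0.25 ± 0.04, adjusted p = 0.000115) and 16.9% lower in CP CML (-0.27 ± 0.04, adjusted p = 6.36e-05) than WT LSKs. The further steps were smaller, at -0.12 ± 0.04 in BC CML against CP CML (adjusted p = 0.0371) and -0.13 ± 0.04 in BC CML against miR-142 KO (adjusted p = 0.0206). Both were lost when transcript length was modelled (-0.08, adjusted p = 0.149, and -0.04, adjusted p = 0.456), the former also with the likelihood ratio test (0.0582) and the latter without miR-142 KO replicate 4 (0.0579). Dnmt3a is among the 1352 tested genes with the longest transcripts, as are Ash1l, Kmt2a, Kmt2d, Setd2 and Tet2, and the median log2 fold change of these 1352 was -0.04 in BC CML against CP CML and -0.10 in BC CML against miR-142 KO.

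The ratio of Tet2 to Dnmt3a per kilobase had lowest, median and highest values of 0.452, 0.523 and 0.653 in WT, 0.642, 0.824 and 1.01 in miR-142 KO, 0.719, 0.849 and 0.975 in CP CML and 0.833, 0.93 and 0.966 in BC CML LSKs. CP CML and BC CML lay wholly above WT, and the lowest miR-142 KO mouse lay just below the highest WT mouse. After the group means were removed, Tet2 rose with the summed level of 6 nuclear-retained RNAs (Pearson r = 0.50 over 24 libraries) and Dnmt3a ran against it (-0.49). That sum overlapped between all groups. The ratio of Tet2 to Dnmt3a too is a description with no test.

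Tet1, the family member of embryonic and stem cells, was lower in all 4 comparisons. It had lowest, median and highest levels of 131, 164 and 212 CPM in WT, 74.5, 95.4 and 113 CPM in miR-142 KO, 90.1, 107 and 136 CPM in CP CML and 58.0, 61.3 and 73.5 CPM in BC CML LSKs. WT had the highest median but overlapped CP CML, and BC CML lay wholly below the other groups. Of all genes tested, 20.7% did not overlap between BC CML and CP CML and 10.6% did not between BC CML and miR-142 KO. For BC CML and WT this share was not counted. Tet1 fell in BC CML compared with CP CML (-0.82 ± 0.11, adjusted p = 4.38e-06), in miR-142 KO compared with WT (-0.79 ± 0.11, adjusted p = 6.28e-06), in CP CML compared with WT (-0.57 ± 0.11, adjusted p = 0.00025) and in BC CML compared with miR-142 KO (-0.60 ± 0.11, adjusted p = 0.000271). Stem cell marker sums were lowest in BC CML as well, and their part in the Tet1 values was not tested. Tet3 passed in none of these comparisons.

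Dnmt3b, the second de novo methyltransferase gene, fell in miR-142 KO (-0.31 ± 0.08, adjusted p = 0.0025) and CP CML (-0.24 ± 0.08, adjusted p = 0.0128) compared with WT LSKs. Idh1, which encodes a producer of the cosubstrate of TET enzymes, rose in BC CML compared with CP CML (1.23 ± 0.12, adjusted p = 2.28e-08) and in miR-142 KO compared with WT (1.16 ± 0.12, adjusted p = 7.25e-08). Of 20 tested genes of DNA methylation and demethylation, 2 rose and 3 fell in BC CML compared with CP CML, 7 rose and 6 fell in miR-142 KO compared with WT, 8 rose and 6 fell in CP CML compared with WT, and 5 rose and 4 fell in BC CML compared with miR-142 KO LSKs.

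Neighbouring chromatin families were counted from lists as well. Of 21 tested subunits of the SWI/SNF remodeller, none rose and 9 fell in CP CML compared with WT, none rose and 8 fell in BC CML compared with miR-142 KO, 5 rose and 4 fell in BC CML compared with CP CML, and 3 rose and 4 fell in miR-142 KO compared with WT LSKs. Smarca2, which encodes an ATPase of the remodeller, fell in each of these (-0.56, -0.46, -0.34 and -0.44). Of 7 demethylases of lysine 27 and lysine 4, none rose in any comparison, and 1, 0, 1 and 2 fell in BC CML compared with CP CML, miR-142 KO compared with WT, CP CML compared with WT and BC CML compared with miR-142 KO.

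Classic targets of these regulators did not move in 1 direction. Hoxa9, a target of ASH1L and MLL1, fell in miR-142 KO (-0.60 ± 0.11, adjusted p = 0.000113) and in CP CML (-0.54 ± 0.11, adjusted p = 0.000306) compared with WT, and was at -0.04 in BC CML against CP CML (adjusted p = 0.777). The difference between the effects of miR-142 loss with and without BCR-ABL passed for Hoxa9 (0.56 ± 0.15, adjusted p = 0.035), but not in 17 of 24 fits with a mouse left out (highest adjusted p = 0.084). Hoxa10 rose in BC CML compared with CP CML (0.33 ± 0.12, adjusted p = 0.0295), a call lost in 8 of 12 such fits (highest adjusted p = 0.111), and fell in CP CML compared with WT (-0.75 ± 0.12, adjusted p = 2.69e-05). Meis1, the HOXA9 cofactor gene, fell in all 4 comparisons, from -0.23 in BC CML against CP CML, where 4 of 12 such fits lost the call, to -0.43 in CP CML against WT. At the Polycomb-silenced Cdkn2a locus, which encodes cell cycle inhibitors, each WT and miR-142 KO library had 0 to 1 counts, the CP CML libraries had 13 to 66 and the BC CML libraries 46 to 90. Cdkn2a was higher in BC CML than CP CML (1.40 ± 0.37, adjusted p = 0.00456), with overlap between the groups through CP CML replicate 1, which had 66 counts where the other 5 had 13 to 22. Without that mouse the log2 fold change was 2.11 (adjusted p = 2.53e-06). Of 13 tested genes of the Hox and Cdkn2 loci and their cofactors, 5 rose and 2 fell in BC CML compared with CP CML, 1 rose and 4 fell in miR-142 KO compared with WT, 2 rose and 6 fell in CP CML compared with WT, and 2 rose and 2 fell in BC CML compared with miR-142 KO LSKs.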

How the data were processed

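The authors deposited read counts per gene for 24 LSK libraries, 1 per mouse, with a column of transcript length in kilobases. Per the study's methods, RNA from sorted LSKs was made into poly(A) libraries and sequenced in pairs, and Trimmomatic and FASTP removed adapters and poly(A) tails, STAR 2.6.0 placed the reads on mm10 and HTSeq 0.11.1 counted them. The annotation and the strand setting are not given in the sources used here, and exons on the opposite strand overlapped 0.255% to 2.65% of the exon bases of 6 members, Ash1l (2.37%) among them.

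Counts were tested with edgeR 4.0.16 under R 4.3.3: TMM normalization, filterByExpr, a joint fit of the 24 libraries, the quasi-likelihood F test, and p-values adjusted by Benjamini-Hochberg over 13520 genes (threshold 0.05). Standard errors are log2 fold changes divided by the root of F, and 95% intervals are 1.96 standard errors. Precision is limited by 6 mice per group, and each member had at least 1186 counts in every library. The count of 0 for Mir142 allows up to 3 counts, for counting error only. No 2 libraries of a group agreed within sampling noise. Correlations used log2 CPM with a prior count of 2. Sites were matched in Python 3.11.15 in the longest 3' UTR per gene (GENCODE vM21).

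The members and lists were chosen with earlier results of these data known. All members are named, with the genes most and least like Ash1l. Other chromatin genes named come from the listed partners and the 3 or fewer called genes of lowest p in a list. Only a part of these is named, mostly beside the member they relate to. Of the chromatin lists, Bicra and Bicral did not match a symbol of the table and Asxl3 did not pass the filter. Of the marker lists, 6 of 9 T or NK cell, 9 of 10 B or plasma cell and 6 of 9 erythroid genes were tested. Scripts were tested on simulated data. Alternatives comprised DESeq2 1.42.0, edgeR's likelihood ratio test, RLE and upper quartile normalization, other filters, sex as a covariate, only the 12 libraries compared, an offset for transcript length (lowess span 0.3) and each mouse left out. Leaving out each mouse for named genes that are no members was chosen after seeing the data.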

Additional observations from a re-analysis of the deposited data

Results flagged for a closer look

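Among the members, 2 mice stood apart from the other 5 of their group by Dixon's criterion, which chance meets in about 1 in 20 groups, and 40 groups were examined. Ezh2 was at 283 CPM in miR-142 KO replicate 3, where the next mouse was at 233 and the lowest at 215 CPM. That library also had the highest sum of proliferation genes (8437 CPM) and the lowest Ezh1 level (55.1 CPM) of the 24. Among miR-142 KO mice it had the lowest sums of neutrophil-primed (2833 CPM), lymphoid-primed (592) and stem cell markers (309). Its levels of Kmt2a (482 CPM), Kmt2d (372) and Tet2 (119) were the lowest of that group too. Calls on Kmt2a, Kmt2d, Setd2 and Tet2 that changed without this library are given above. Without it, Ezh2 was lower in miR-142 KO than WT LSKs (-0.18 on the log2 scale, adjusted p = 0.0131, against -0.13 and 0.107 with it). It also passed there without WT replicate 4 (0.0363) and with upper quartile normalization (0.016). Bmi1 was at 109 CPM in miR-142 KO replicate 6, where the next mouse was at 86.2 and the lowest at 78.7 CPM.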

How the results depend on the processing

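No paired analysis was possible because the mice carry only their own identifiers and no replicate number is shared between groups. The 16 calls on members kept their direction in every alternative. They stayed past the threshold in 137 of 144 values from the 9 other settings and in 167 of 192 values with a mouse left out. Signs turned in 42 values, none of a called member and none over 0.0444 in size. Members called between BC CML and miR-142 KO numbered 2, but 4 with upper quartile normalization, 1 with the length offset and 1 to 4 with a mouse left out. With a mouse left out, members called between CP CML and WT numbered 3 to 5 (of 5) and those of the difference between the effects of miR-142 loss 0 to 1 (of 0). For that difference DESeq2 called 891 of all genes (386 higher, 505 lower) instead of 539. Tet2 between BC CML and CP CML was -0.0003758 with DESeq2, -0.000307 with RLE, -0.007939 with at least 1 CPM in 6 libraries, -0.003973 with 12 libraries, -0.03351 with upper quartile normalization and -0.03713 to 0.03596 with a mouse left out. With the length offset, Kmt2a was 0.03553 between BC CML and CP CML, Kmt2d 0.01789 between BC CML and miR-142 KO, Setd2 0.03717 between CP CML and WT, and Asxl1 0.01701 between miR-142 KO and WT. Setd2 between miR-142 KO and WT was -0.04064 with upper quartile normalization and -4.599e-05 with 12 libraries. Tet2 between BC CML and miR-142 KO was -0.002148 with upper quartile normalization. With a mouse left out, Asxl1 ranged from -0.02353 to 0.01146 and Setd2 from -0.01657 to 0.03667 between miR-142 KO and WT, Setd2 from -0.05851 to 5.805e-06 between CP CML and WT, and Tet2 from -0.03326 to 0.06905 between BC CML and miR-142 KO. In the difference, Bmi1 ranged from -0.07277 to 0.0345 and Kmt2d from -0.04436 to 0.07382. The cause was not tested. Between CP CML and WT, 2 of 5 calls on members were higher with the length offset, against 1 of 5 without it.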
